A study of Homo sapiens with 2 samples.

Results

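ST13, the gene of the HSP70-interacting protein HIP, and 9 genes of the cytosolic HSP70 and HSP90 chaperone system were followed in A549 cells after knockdown of the long noncoding RNA MILIP. The 10 genes were chosen by name, with the values of these same libraries already known: ST13 because the study had picked it, on its ratio in these libraries, as a gene downstream of p53, and HSPA8, HSPA4, HSPH1, HSP90AA1, HSP90AB1, STIP1, DNAJB1, BAG3 and HSF1 because they belong to the same chaperone system. They are 10 of the 27856 genes for which values were deposited, and all 10 passed the minimum mean value of 1, as did 13521 genes in all. ST13 had 355.5 with MILIP siRNA against 236.1 with control siRNA, just past the 1.5-fold threshold, whereas HSPH1, which encodes an HSP110 chaperone, had 125.0 against 337.0, a level 2.69-fold lower. The most abundant chaperones of the set, HSP90AA1, HSP90AB1 and HSPA8, were lower with MILIP siRNA by 1.13-fold to 1.35-fold. The lower value was in the MILIP siRNA library for 8 of the 10 genes and for 7052 of all 13521. Nothing is read from that count, since the 10 were chosen with their values known.

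A549 is an established human lung cancer cell line. One culture had received a control siRNA and the other an siRNA against MILIP (also called MAFG-AS1), both with a lipid reagent, and RNA was collected 48 h after transfection. Both groups share the cell line, the medium and the transfection, and they differ in the siRNA. The study asked through this experiment which genes respond to the loss of MILIP. Each condition is 1 library made with 1 siRNA, so no spread between cultures can be measured, no test across libraries was possible, and an effect of MILIP cannot be told apart from any other effect of that siRNA or that culture.

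Values are read counts scaled by the authors in a way not given in the sources used here, and they were treated as CPM. Each value is also given as the number of reads that its smallest step implies. These reads summed to 20300800 with control siRNA and 19460956 with MILIP siRNA. MILIP itself went from 29.5 to 3.22, or from 588 to 64 reads. The log2 ratio of the values plus 1 was −2.85. Without the added 1 it was −3.19, or 9.15-fold lower, with 95% limits of −3.59 and −2.82. Keratin genes KRT8, KRT18 and KRT19 (summed 3246 and 3651) and 6 of 6 NRF2-driven enzymes known for high levels in A549 (summed 12351 and 18833) were present in both libraries, while 9 of 9 markers of leukocytes, endothelium, fibroblasts and alveolar type 2 cells were listed at 0. In bulk RNA, fewer cells with a transcript and less of it in each cell cannot be told apart.

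HSP70 proteins bind exposed stretches of unfolded protein and release them in a cycle driven by ATP. J-domain proteins such as DNAJB1 bring the substrate and stimulate ATP hydrolysis, HIP holds HSP70 in its ADP-bound state with the substrate still attached, and exchange factors of the HSP110 and BAG families remove ADP so that the substrate is let go. HOP, the product of STIP1, joins HSP70 to HSP90 and so allows kinases, steroid receptors and other clients to be handed on. HSF1 is the transcription factor of the heat shock response. It is held inactive by the chaperones whose genes it induces, and on activation binds as a trimer to heat shock elements, inverted repeats of the unit GAA.

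These elements were looked for in the promoters of the 10 genes, to show where they lie beside the values that follow. A promoter was taken as the 250 bases before and the first 50 bases after a RefSeq start (GRCh38.p14), and 8 of the genes had 14 such promoters. ST13 and HSF1 had no promoter among them. An element of 3 alternating units, GAANNTTCNNGAA or TTCNNGAANNTTC, was found for HSP90AB1, HSPA8 and HSP90AA1. These forms are each other's reverse complement, so both strands were covered. An element of 2 units, GAANNTTC or TTCNNGAA, each of which reads the same on both strands and is part of the longer element, was also found for DNAJB1 and STIP1, while HSPA4, BAG3 and HSPH1 had neither. Among all 35116 promoters of the table, the longer form was present in 0.490% and the shorter form in 13.5%. The promoters below are those of the abundant chaperones that hold a match and the DNAJB1 promoter with the most matches, and for contrast that of HSPH1, which showed the lowest ratio and holds none. They are written 5′ to 3′ on the strand of the gene, at chr6:44247693-44247992 (+ strand) for HSP90AB1, chr11:123062087-123062386 (− strand) for HSPA8, chr14:102086995-102087294 (− strand) for HSP90AA1, chr19:14518348-14518647 (− strand) for DNAJB1 and chr13:31162339-31162638 (− strand) for HSPH1. Capitals mark every match to the shorter form, with overlapping matches run together.
HSP90AB1: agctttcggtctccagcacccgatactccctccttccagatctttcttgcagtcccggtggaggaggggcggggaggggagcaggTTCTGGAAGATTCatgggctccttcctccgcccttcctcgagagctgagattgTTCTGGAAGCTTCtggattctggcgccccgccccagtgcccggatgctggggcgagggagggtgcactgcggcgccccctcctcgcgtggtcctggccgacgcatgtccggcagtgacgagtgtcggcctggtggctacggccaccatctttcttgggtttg
HSPA8: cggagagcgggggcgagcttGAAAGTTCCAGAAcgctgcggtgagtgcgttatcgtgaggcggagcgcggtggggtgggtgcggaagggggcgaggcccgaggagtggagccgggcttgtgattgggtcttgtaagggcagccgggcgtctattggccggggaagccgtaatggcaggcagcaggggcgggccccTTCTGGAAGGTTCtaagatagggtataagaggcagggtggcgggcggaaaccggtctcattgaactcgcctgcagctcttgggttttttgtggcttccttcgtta
HSP90AA1: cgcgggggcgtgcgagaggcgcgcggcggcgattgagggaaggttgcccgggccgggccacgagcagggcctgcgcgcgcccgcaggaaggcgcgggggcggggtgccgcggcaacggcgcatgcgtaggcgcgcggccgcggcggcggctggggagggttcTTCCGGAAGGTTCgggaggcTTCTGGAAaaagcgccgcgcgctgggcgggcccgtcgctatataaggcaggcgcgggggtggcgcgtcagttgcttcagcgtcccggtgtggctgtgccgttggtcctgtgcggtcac
DNAJB1: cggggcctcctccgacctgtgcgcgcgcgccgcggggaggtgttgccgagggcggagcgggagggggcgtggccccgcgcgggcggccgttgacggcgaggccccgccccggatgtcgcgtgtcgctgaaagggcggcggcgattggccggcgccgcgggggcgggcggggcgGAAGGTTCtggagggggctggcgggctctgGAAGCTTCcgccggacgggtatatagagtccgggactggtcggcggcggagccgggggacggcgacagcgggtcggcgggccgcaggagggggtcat
HSPH1: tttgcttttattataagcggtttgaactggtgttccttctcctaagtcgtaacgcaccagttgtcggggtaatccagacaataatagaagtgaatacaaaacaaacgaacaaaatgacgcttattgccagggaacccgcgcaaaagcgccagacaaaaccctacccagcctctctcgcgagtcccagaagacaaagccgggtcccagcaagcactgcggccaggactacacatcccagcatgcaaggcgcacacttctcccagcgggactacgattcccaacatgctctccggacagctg
The longer form starts 165 and 112 bases before the start of HSP90AB1, 230 and 55 bases before that of HSPA8, and 88 bases before that of HSP90AA1. The DNAJB1 promoter printed has the shorter form at 77 and 47 bases before its start, and a further DNAJB1 promoter, at chr19:14517888-14518187 and not printed, has 1 match at its start. HSP90AB1, HSP90AA1, DNAJB1 and STIP1 also have promoters without a match, which are not printed. A match is a run of letters and not a measured binding site, and a promoter without one may hold other forms of the element.

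The core of the system is HSPA8, the constitutive cytosolic HSP70 (ENSG00000109971, chr11:123057489-123063230, − strand; GRCh38, GENCODE release 29, as for all genes here). Its value was 2163 with control siRNA and 1908 with MILIP siRNA, from 43176 and 37942 reads. The log2 ratio of the values plus 1 was −0.18, with 95% counting limits of −0.20 and −0.16. The difference is small and larger than the counting error. The HSPA8 promoter above carries 2 of the longer elements, whose part in the ratio was not tested. Of the exon bases of HSPA8, 3.61% also belong to SNORD14C and SNORD14D, small nucleolar RNAs encoded within the gene.

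ST13 encodes HIP, which binds the ATPase domain of HSP70 (ENSG00000100380, chr22:40824535-40857022, − strand). It had 236.1 with control siRNA and 355.5 with MILIP siRNA, from 4713 and 7070 reads. The log2 ratio was 0.59 (limits 0.54 to 0.64), or 1.51-fold without the pseudocount (limits 1.45 to 1.56). Because ST13 was chosen for this ratio, the value is a description and supports nothing further. It lay just inside the threshold, in place 1496 of the 1507 genes that were at least 1.5-fold higher, and the lower counting limit lay outside it. The table lists 17 ST13 pseudogenes by name, of which 1 has a value, and that value is 0 in both libraries. For all the genes followed here 48 pseudogenes are listed by name, among them 17 of HSPA8, 5 of HSP90AA and 6 of HSP90AB. Of the 48, 9 have values, all of them 0 in both libraries. Whether reads that also match a pseudogene of any of these genes were dropped or assigned is not given in the sources used here.

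DNAJB1, the main inducible HSP40, had 207.9 with control siRNA and 159.9 with MILIP siRNA (ENSG00000132002, chr19:14514770-14529770, − strand). These values stand for 4151 and 3180 reads and a log2 ratio of −0.38 (limits −0.45 to −0.31). The MILIP siRNA library was thus the lower of the pair by more than the counting error but by less than 1.5-fold. Exons of MIR639 and TECR on the other strand cover 6.21% of its exon bases, and the sources used here do not give the strand setting of the counting.

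The HSP110 proteins HSPH1 and HSPA4 are large relatives of HSP70 that act as its exchange factors. HSPH1 (ENSG00000120694, chr13:31134974-31162388, − strand) had 337.0 with control siRNA and 125.0 with MILIP siRNA, from 6728 and 2487 reads. Its log2 ratio of −1.42 (limits −1.50 to −1.36) was the lowest of the 10 genes and the 234th lowest of the 13521, with 1.72% of genes below it. HSPA4 (ENSG00000170606, chr5:133051962-133106449, + strand) had 392.8 and 351.4, from 7843 and 6989 reads, giving a log2 ratio of −0.16 (limits −0.21 to −0.11). The HSP110 pair therefore did not move by the same amount. With control siRNA there were 857.8 reads of HSPH1 for every 1000 of HSPA4, and with MILIP siRNA 355.8. No other gene of GENCODE shares exon bases with either.

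BAG3, an exchange factor that also links HSP70 to autophagy, was the only gene besides ST13 with the higher value in the MILIP siRNA library (ENSG00000151929, chr10:119651370-119677819, + strand). It had 139.8 with control siRNA and 149.6 with MILIP siRNA, from 2792 and 2976 reads. The log2 ratio of 0.10 had limits of 0.02 and 0.17, close to no difference even by counting error alone.

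The cytosolic HSP90 chaperones come from a pair of genes, of which HSP90AA1 is the more heat-inducible and HSP90AB1 the more constitutive. HSP90AA1 (ENSG00000080824, chr14:102080738-102139699, − strand) had 2561 with control siRNA and 1899 with MILIP siRNA, from 51130 and 37767 reads, giving a log2 ratio of −0.43 (limits −0.45 to −0.41). HSP90AB1 (ENSG00000096384, chr6:44246166-44253888, + strand) had 2112 and 1616, from 42168 and 32136 reads, giving a log2 ratio of −0.39 (limits −0.41 to −0.37). Both were lower by nearly the same amount. For either gene the promoter shown above carries the longer element, while every other promoter taken for these genes holds neither form. The part of the element in these ratios was not tested. Summed, the pair went from 4673 to 3515. Within a library there were 1213 reads of HSP90AA1 for every 1000 of HSP90AB1 with control siRNA and 1175 with MILIP siRNA, which is a ratio of 0.969 with counting limits of 0.950 and 0.989. HSP90AA1 shares 3.75% of its exon bases with WDR20 on the other strand.

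STIP1 (ENSG00000168439, chr11:64185272-64204543, + strand), the gene of HOP, had 518.6 with control siRNA and 450.7 with MILIP siRNA. From 10354 and 8964 reads, its log2 ratio was −0.20 (limits −0.24 to −0.16). It stood close to HSPA8 and between the HSP90 genes and no difference.

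HSF1 (ENSG00000185122, chr8:144291591-144314722, + strand) had 106.6 with control siRNA and 90.4 with MILIP siRNA, from 2128 and 1798 reads. The log2 ratio was −0.24 (limits −0.33 to −0.15). HSF1 is regulated largely at the protein level, which these data do not measure. DGAT1 and AC233992.1 on the other strand share 2.62% of its exon bases.

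**Figure D1:**
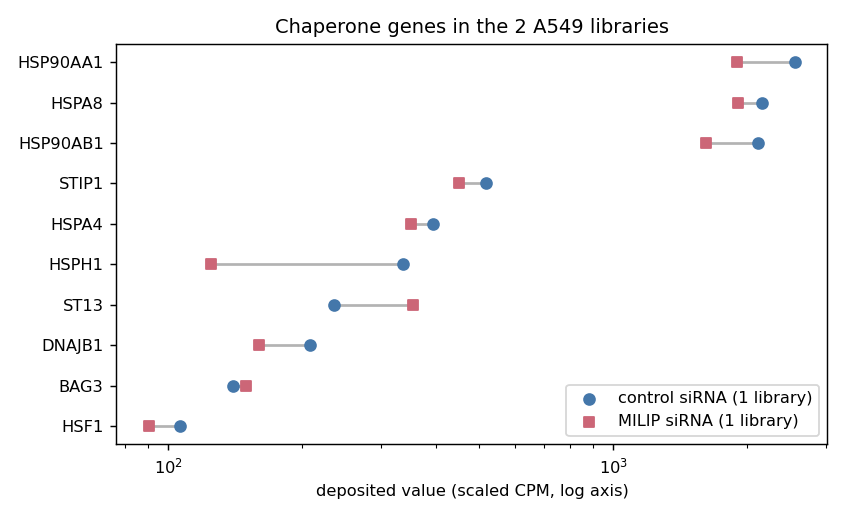
Values of the 10 chaperone genes in the control siRNA and the MILIP siRNA library, in scaled CPM on a log axis, with 1 library per condition (circles for control siRNA, squares for MILIP siRNA) and a grey line joining the values of a gene. ST13 is higher with MILIP siRNA (236.1 to 355.5), HSPH1 is lower (337.0 to 125.0), and the other genes lie closer together between the libraries.

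Set side by side, 1 of the 10 genes (ST13) was at least 1.5-fold higher, where 11.1% of all genes were, and 1 (HSPH1) was at least 1.5-fold lower, where 13.8% of all genes were. The remaining 8 did not pass 1.5-fold. Since the genes were chosen with these values known, nothing is read from these counts. The median log2 ratio of the 10 genes was −0.22, and −0.24 without ST13, beside −0.03 for all 13521 genes. The counting limits lay above 0 for ST13 and BAG3 and below 0 for the other 8, while over all genes they lay above 0 for 4074, below 0 for 4931 and on both sides of 0 for 4388. At these depths small ratios pass counting error readily, and counting error is not the spread between cultures.

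**Figure D2:**
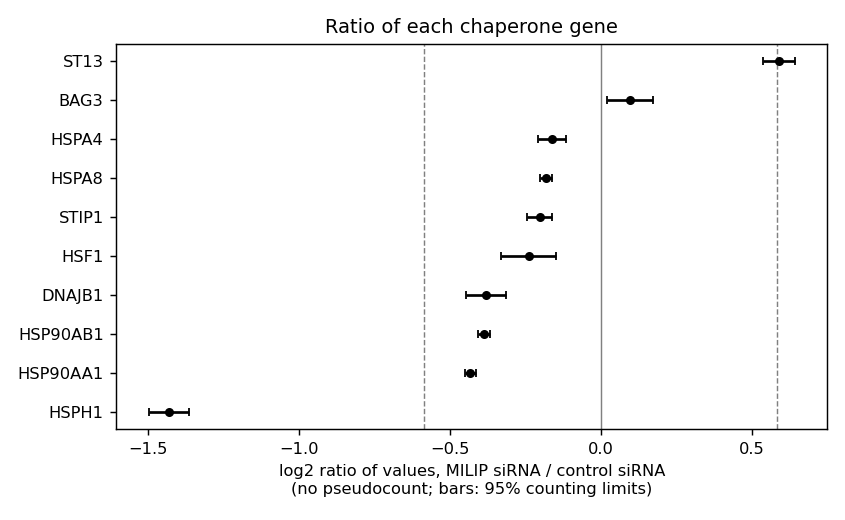
Log2 ratio of the values without a pseudocount, MILIP siRNA over control siRNA, for each of the 10 chaperone genes, with bars for the 95% counting limits and dashed lines at 1.5-fold. ST13 at 0.59 and HSPH1 at −1.43 are past the lines, BAG3 lies at 0.10, and the other 7 genes lie between −0.43 and −0.16.

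To compare levels between genes, values were divided by the exon length of each gene. With control siRNA, HSP90AB1 had the highest level at 709 per kilobase, followed by HSP90AA1 at 488 and HSPA8 at 446. STIP1 came next at 111.4, then HSPA4 at 76.2, ST13 at 56.9, DNAJB1 at 56.6, BAG3 at 50.9, HSPH1 at 40.2 and HSF1 at 20.1. ST13 and DNAJB1 were the only neighbours in this order whose counting limits overlapped. With MILIP siRNA the order became HSP90AB1 at 542 per kilobase, HSPA8 at 393, HSP90AA1 at 362, STIP1 at 96.8, ST13 at 85.7, HSPA4 at 68.2, BAG3 at 54.5, DNAJB1 at 43.5, HSF1 at 17.0 and HSPH1 at 14.9, with no overlap between neighbours. HSPA8 and HSP90AA1 had changed places, ST13 stood above HSPA4, and HSPH1 had become the lowest of the 10 per kilobase, below the transcription factor HSF1. That last place rests on the exon lengths, 8390 bases for HSPH1 and 5307 for HSF1. Before division HSPH1 had the higher value with MILIP siRNA, 125.0 against 90.4. The exon length is that of all annotated exons, so a gene with unused exons has its level understated.

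Ratios of reads between genes of the same library do not depend on how the authors scaled it. For every 1000 reads of HSPA8 there were 109.2 reads of ST13 with control siRNA and 186.3 with MILIP siRNA, or 1.71-fold more (limits 1.64 to 1.78). Because ST13 was chosen for its ratio, its proportions to other genes restate that choice and are a description only. HSPH1 went from 155.8 to 65.5 reads per 1000 of HSPA8, which is 2.38-fold lower. HSPA4 kept its proportion to HSPA8, with 181.7 and 184.2 reads per 1000 and a ratio of 1.01 whose limits, 0.979 and 1.05, held no difference. Among the other HSP70 partners, DNAJB1 had 96.1 and 83.8 reads per 1000 of HSPA8, a ratio of 0.872, and BAG3 had 64.7 and 78.4, a ratio of 1.21.

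ST13, which encodes HIP, had 455.2 reads per 1000 of STIP1 with control siRNA and 788.7 with MILIP siRNA, 1.73-fold more (limits 1.65 to 1.82). STIP1 had 202.5 and 237.4 reads per 1000 of HSP90AA1, and 245.5 and 278.9 per 1000 of HSP90AB1. Between the genes with the highest and the lowest ratio, for every 1000 reads of HSPH1 there were 700.5 of ST13 with control siRNA and 2843 with MILIP siRNA, or 4.06-fold more (limits 3.83 to 4.30). These limits cover counting error only. Together the 10 genes held 0.863% of all reads with control siRNA and 0.726% with MILIP siRNA.

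The related genes were taken from 9 lists of chaperone families, drawn up with earlier results of these data known. Leaving out the 10 genes, 96 of the 103 listed genes passed the minimum, with a median log2 ratio of −0.01. Of these, 15 were at least 1.5-fold higher and 9 at least 1.5-fold lower, where 11.1% and 13.8% of all genes were. The same shares stand beside the counts of each list below, and nothing is read from those counts. CRYAB, listed at 0 with control siRNA, passed the minimum only through its value with MILIP siRNA, and without it 14 of 95 were higher.

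HSP70 and HSP110 genes were measured for 13 of 13, with a median of −0.03. Stress-inducible HSPA1A had 152.5 with control siRNA and 207.5 with MILIP siRNA, giving a log2 ratio of 0.44. Its near-identical neighbour HSPA1B had 131.1 and 143.4, a log2 ratio of 0.13, and since reads from them can be split or dropped, their sum of 283.6 and 350.9 is the safer value. HSPA2 stood at 0.13 and HSPA12A at −0.52. Past 1.5-fold were the strictly inducible HSPA6, from 2.50 to 5.23 (50 and 104 reads), and HSPA12B, from 4.91 to 2.16 (98 and 43 reads), both named here after their values were seen, besides HSPH1.

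HSP90 cochaperones ranged from −1.49 to 1.35. With the HSP90 genes, 28 of 29 were measured, with a median of −0.07, 3 at least 1.5-fold higher and 4 at least 1.5-fold lower. PTGES3, the gene of p23, which stabilises the ATP-bound form of HSP90, had 710.0 with control siRNA and 278.8 with MILIP siRNA, giving a log2 ratio of −1.35 (limits −1.39 to −1.30). TOMM34, a cochaperone of mitochondrial protein import, had 49.2 and 16.9, a log2 ratio of −1.49. Lower too were CHORDC1, with 175.7 and 91.2 and a log2 ratio of −0.94, and SGTB, named here after its value was seen, with 35.0 and 22.5 and a log2 ratio of −0.62 that was −0.49 after removal of the GC trend. On the higher side, FNIP2 had 9.92 and 26.8, a log2 ratio of 1.35, and UNC45A, a chaperone of myosin, had 69.6 and 105.6, a log2 ratio of 0.60 that was 0.48 after removal of the GC trend, short of 1.5-fold. CDC37, the kinase cochaperone, had 127.4 and 129.8 and a log2 ratio of 0.03, also given after its value was seen.

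The J-domain genes had a median of −0.00 over 19 of 20. DNAJB5 went from 6.81 to 16.8 and DNAJB2 from 42.4 to 67.2, with log2 ratios of 1.19 and 0.65. For DNAJB2 the log2 ratio was 0.47 after removal of the GC trend, which is short of 1.5-fold. DNAJC13, an endosomal J-domain protein, had 73.7 and 34.5, a log2 ratio of −1.07, and DNAJB6 stood at −0.46. DNAJB1 was therefore in the lower part of a family without a common direction.

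Exchange factors of HSP70 were measured for 10 of 10, with a median of −0.16. BAG1 had 69.8 with control siRNA and 119.9 with MILIP siRNA, giving a log2 ratio of 0.77, and was the only one at least 1.5-fold higher. BAG2 had 83.2 and 57.4, a log2 ratio of −0.53. HSPH1 was the only one at least 1.5-fold lower.

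Small heat shock proteins hold unfolding proteins for HSP70, and 3 of their 8 listed genes passed the minimum. HSPB1 had 445.2 with control siRNA and 708.6 with MILIP siRNA, giving a log2 ratio of 0.67, which was 0.41 and short of 1.5-fold after removal of the GC trend. HSPB8, the partner of BAG3, had 19.6 and 35.4, a log2 ratio of 0.82. CRYAB, also given after its value was seen, was listed at 0 with control siRNA, which means fewer than 20 reads, and had 2.82 from 56 reads with MILIP siRNA. The median of the 3 was 0.82, and 0.75 without CRYAB, which passed the minimum only through the library where it was high. These genes stood on the other side of 0 from most of the 10.

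The chaperonin, which folds actin and tubulin, and prefoldin, which delivers them to it, lay close together. Their 14 genes had a median of −0.25, none passed 1.5-fold in either direction, and 13 lay below 0. Over all genes, 7052 of 13521 lay below 0. The 8 chaperonin subunit genes, a subset not among the planned results, were all below 0, with a median of −0.24. They ran from −0.46 for CCT8 (321.5 to 233.5) to −0.02 for CCT5 (361.0 to 356.7). CCT5 lay above 0 under both other scalings and after removal of the GC trend. Among prefoldin genes PFDN4 stood at −0.45 and PFDN5 at 0.16.

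Heat shock factor genes and their regulators, 6 in number with a median of 0.03, had none past 1.5-fold. HSF2 had 11.9 and 13.1, a log2 ratio of 0.13, HSF4 had 10.2 and 10.6, a log2 ratio of 0.04 that was −0.21 after removal of the GC trend, and HSBP1, which encodes a binding partner of HSF1, had 215.7 and 166.4, a log2 ratio of −0.37. The genes usually induced by heat, 25 in all with 8 of the 10 chaperone genes among them, had a median of 0.03. The other 17 had a median of 0.13, with 5 at least 1.5-fold higher (CRYAB, UBB, HSPA6, SERPINH1 and HSPB1) and 1 lower (CHORDC1). Without CRYAB the median of the remaining 16 was 0.12, with 4 at least 1.5-fold higher. UBB, a polyubiquitin gene, had 101.0 and 214.6, a log2 ratio of 1.08, and SERPINH1, a collagen chaperone, had 155.9 and 257.3, a log2 ratio of 0.72. Heat-inducible genes thus lay on both sides of 0, with HSPH1 at the low end.

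The longer heat shock element was also compared with the ratios across all genes. Of the 10344 measured genes with a promoter in the table, 51 held it, HSP90AB1, HSPA8 and HSP90AA1 among them. Their median log2 ratio was 0.01, with 26 above 0 and 25 below, and that of the 10293 genes without it was −0.03. Of the 51, 11.8% were at least 1.5-fold higher and 17.6% at least 1.5-fold lower, beside 11.1% and 13.8% of all genes.

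**Figure D3:**
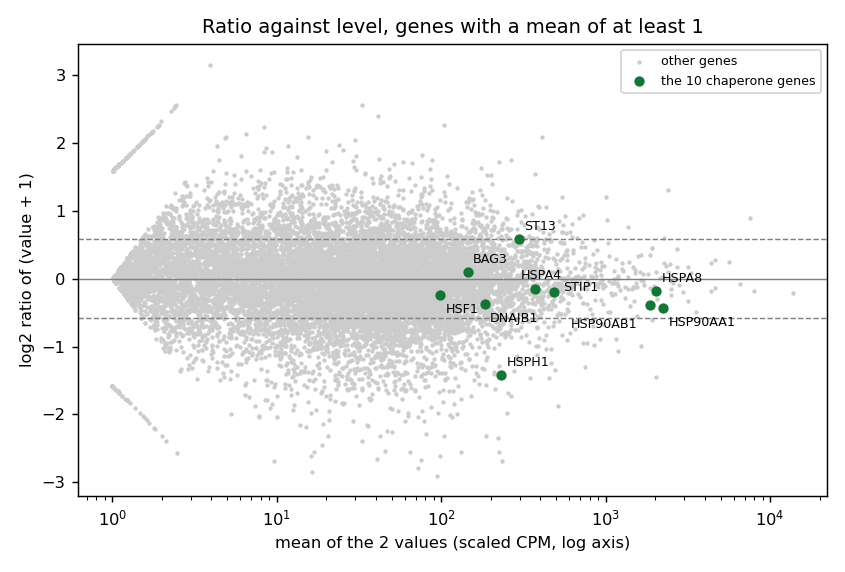
Log2 ratio of (value + 1) against the mean of both values in scaled CPM (log axis) for all 13521 genes measured, with the 10 chaperone genes in green and dashed lines at 1.5-fold. HSPA8, HSP90AA1 and HSP90AB1 are among the abundant genes of these cells, and HSPH1 (−1.42) and ST13 (0.59) lie on opposite sides of 0 at similar mean levels.

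Features of the transcripts that moved with the ratio were set beside the 10 genes. Across 13398 genes the log2 ratio was related to transcript GC content, with a Spearman's rho of 0.285 as a description over genes of the same 2 libraries. When the genes were split into 4 equal groups from low to high GC content, the median log2 ratios were −0.20, −0.11, 0.04 and 0.17. ST13, at 41.6% GC, lay in the group with the lowest median, and its own ratio was 0.73 once the median of genes of similar GC content was subtracted. HSPH1, at 40.0% GC, had −1.23 after the same subtraction. HSPA4 (42.5% GC) went to −0.02 and BAG3 (56.9% GC) to 0.01, whereas HSF1 (64.7% GC) went to −0.49. The part of GC content in these ratios was not tested.

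**Figure D4:**
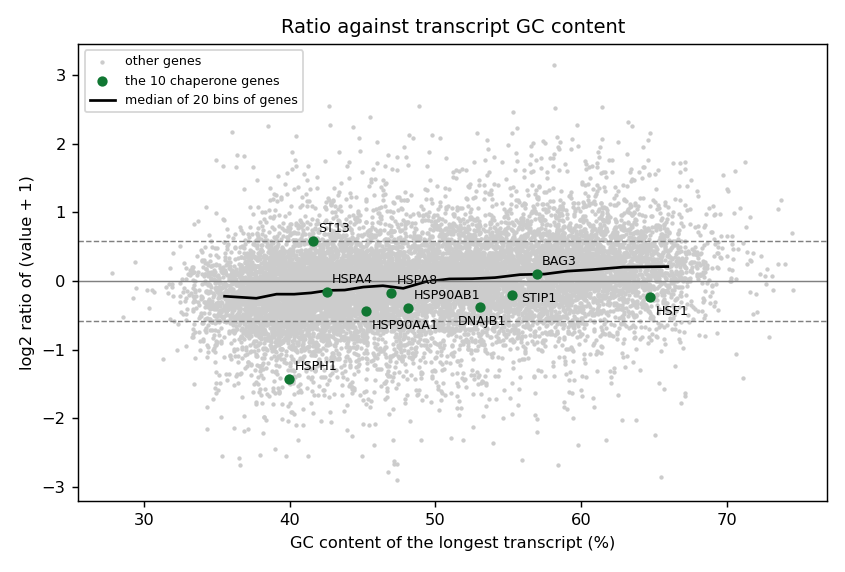
Log2 ratio of (value + 1) against GC content of the longest transcript in percent, with the 10 chaperone genes in green, other measured genes in grey, the black line as the median of 20 bins of genes and dashed lines at 1.5-fold. Medians climb with GC content from −0.20 in the lowest of 4 equal groups to 0.17 in the highest, and ST13 and HSPH1, both near 40.0% GC, lie above and below the line.

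A further feature is the seed of the siRNA, which can pair with 3′ UTRs of other genes. The sample labels do not say which of the study's MILIP siRNAs was used. The second was taken here because a figure legend of the study names it for the RNA sequencing. The site complementary to its guide bases 2 to 8, GACCCTA, was present in the longest annotated 3′ UTR of 755 of 12198 genes (6.19%). Genes with the site had a median log2 ratio of −0.41 and genes without it −0.01. These medians were not adjusted for 3′ UTR length or GC content, and the part of the seed in their difference was not tested. None of the 10 chaperone genes held the site in that 3′ UTR, HSPH1 included. Of the 96 related genes, 3 held it: DNAJC13, DNAJC3 and HSBP1, with log2 ratios of −1.07, −1.29 and −0.37. The part of the seed in those ratios was not tested.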

How the data were processed

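RNA of A549 cells was sequenced in 1 library per condition. TopHat2 2.0.12, HTSeq 0.6.1 and hg38 are named in the submitters' processing notes; how each was used, the scaling, the strand setting and the annotation are not given in the sources used here. The deposited values carry the name of read counts without being whole. Within a library, 100% of those above 0 divide evenly by 1 step (to 0.01 of it), with at least 20 steps each. Their sums were 1016809 and 978499, so they were treated as CPM after a scaling by the authors. Taking 1 step as 1 read gives 20300800 and 19460956 reads. The authors' 4 comparison columns (log2 fold change, p-value, q-value and call), also deposited, were not used.

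Log2 ratios used a pseudocount of 1, which understates ratios of low genes, and genes whose mean reached 1. Limits are 95% Clopper-Pearson limits on the ratio of reads without the pseudocount, or normal-approximation limits for ratios of 4 counts. They cover counting error only. With 1 library per condition no test was made. Symbols matched 98.8% of measured genes. Gene models are GENCODE release 29 and promoters RefSeq. GC trends were removed by the median of 50 bins. The 10 genes and all lists were chosen with earlier results of these data known. Named are these 10, MILIP, their near-identical copies, and in each list the highest 2 and lowest 2 genes whose mean reached 5. Exceptions are marked. Alternatives were a pseudocount of 0.1, 2 other scalings, no minimum, a mean of at least 5, 2-fold, the counting limits as the threshold and removal of the GC trend, and, chosen after seeing the data, genes above 0 in both libraries. Calculations were tested on simulated data, in Python 3.11.15 (pandas 2.3.3, numpy 2.4.6, scipy 1.17.1); matplotlib 3.10.9 drew the figures.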

Additional observations from a re-analysis of the deposited data

How the results depend on the processing

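All 10 chaperone genes kept their direction under a pseudocount of 0.1, both other scalings, no minimum, a mean of at least 5 and removal of the GC trend, and of the other 30 genes named by the rule 28 to 30 did. The size of the ratios was less stable. It moved by no more than counting error for 7 of the 10 genes under scaling by the median of ratios and for 4 under scaling by the total. After removal of the GC trend this held for 1 of the 10 and for 14 of the other 30. Of the 20 genes among these 40 that were past 1.5-fold, 3 no longer were after removal of the GC trend, UNC45A at 0.48, DNAJB2 at 0.47 and HSPB1 at 0.41, and none was lost or gained under the other scalings, pseudocount or minimums at the same threshold. Scaling by the total moved the median of the 10 genes to −0.16 and that of chaperonin and prefoldin genes to −0.20. Removal of the GC trend moved the medians to −0.29 for the 10 genes, −0.057 for exchange factors and 0.71 for small heat shock genes. Without a minimum the small heat shock genes had a median of 0.33, and with a mean of at least 5 the heat-inducible genes had −0.036. Keeping only genes above 0 in both libraries, chosen after seeing the data, left out CRYAB and gave medians of 0.75 for small heat shock and −0.00 for heat-inducible genes. At 2-fold, 0 of the 10 genes were higher, since ST13 no longer passed, and by counting limits alone 2 were higher and 8 lower. No paired analysis was possible because there was a single library for either siRNA, which also left no replicate to leave out. Depth limits HSF2BP, CRYAB, HSPA1L, HSPA12B and HSPA6, each with 104 reads or fewer in either library.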

Other observations

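The chaperones of the endoplasmic reticulum and the mitochondria, which do the same work in other compartments, gave other values than the 10 cytosolic genes, with no test of the difference. Taken as a single list, as planned, their 14 genes had a median log2 ratio of 0.14. Of the 14, 4 were at least 1.5-fold higher and 3 at least 1.5-fold lower, beside 11.1% and 13.8% of all genes. The split by compartment that follows was not among the planned results. Of 7 genes of the endoplasmic reticulum 4 were at least 1.5-fold higher with MILIP siRNA, 1 was at least 1.5-fold lower, and their median log2 ratio was 0.64. SIL1, 1 of these 4 and named after its value was seen, went from 0.64 to 0.45 after removal of the GC trend, short of 1.5-fold. HSPA5, the HSP70 of that compartment, had 724.7 with control siRNA and 1323 with MILIP siRNA, giving a log2 ratio of 0.87, against −0.18 for HSPA8. DNAJB9, a J-domain partner of HSPA5, had 41.7 and 74.1, a log2 ratio of 0.81. DNAJC3, the lowest of these genes, had 60.9 and 24.3, a log2 ratio of −1.29, and holds the seed site of the study's second MILIP siRNA. HSP90B1, the HSP90 of the endoplasmic reticulum, given after its value was seen, had 1041 and 1274, a log2 ratio of 0.29, where HSP90AA1 and HSP90AB1 had −0.43 and −0.39.

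The 7 mitochondrial genes had a median of 0.02, with none at least 1.5-fold higher and 2 at least 1.5-fold lower. GRPEL1, an exchange factor of the mitochondrial HSP70, had 74.0 and 29.8, a log2 ratio of −1.29. TRAP1, the mitochondrial HSP90, given after its value was seen, had 99.8 and 59.1, a log2 ratio of −0.75. HSPA9, the mitochondrial HSP70, also given after its value was seen, had 656.4 and 666.9, a log2 ratio of 0.02.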
